A study of Mus musculus with 9 samples.

Results

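The data concern 10 genes of the smooth muscle contractile programme, Acta2, Actg2, Myh11, Mylk, Tagln, Cnn1, Lmod1, Synpo2, Des and Myocd, in whole mouse lung. They were taken as every array probe whose RefSeq transcript belongs to 1 of these genes, which gave 18 probes for 10 of the 22911 genes named on the array, and all 18 probes were bright enough to be tested. Gene expression had been measured with one-colour Agilent arrays in male C57BL/6J mice aged 12 weeks when exposure began, which breathed a 3.5% aerosol of IQOS, 3.5% cigarette smoke (CS) or fresh air for 6 months. IQOS is a heated tobacco product, which warms tobacco without burning it. Each of the 3 groups had 3 arrays, called IQOS 1 to 3, CS 1 to 3 and air 1 to 3. The mice share a strain, a sex and an age, no gene was altered in any group, and the labels do not say whether an array holds RNA of 1 mouse or a pool, and the p-values below therefore reflect only how much these samples vary, which may be technical.

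Smooth muscle forms the contractile layer around airways and pulmonary vessels. In these cells a rise in calcium activates myosin light chain kinase (Mylk), which phosphorylates the light chain of smooth muscle myosin (heavy chain Myh11), and the myosin then pulls on filaments of smooth muscle actin (Acta2 and Actg2). Calponin (Cnn1), transgelin (Tagln), leiomodin (Lmod1) and synaptopodin 2 (Synpo2) bind or shape the actin filaments, and desmin (Des) links them into the cytoskeleton. Myocardin (Myocd) switches many of these genes on together, as a partner of serum response factor (SRF), which binds a DNA element called the CArG box. In whole lung, fewer smooth muscle cells and less RNA per cell cannot be told apart.

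A level is given throughout as the log2 signal relative to its array's 75th percentile, so that 1 unit is a 2-fold difference, and levels of different probes are not compared. The 75th percentile lay between 973.3 and 1098 signal units, between 64.3% and 68.8% of probes were well above background on an array, and 0 spots were saturated. The tissue label was checked with 8 genes of lung epithelium, which were well above background on 9 of 9 arrays. Among them were surfactant protein C (Sftpc), at 9.14 to 9.34, the club cell protein Scgb1a1, at 8.93 to 9.17, and the alveolar type 1 marker Ager, at 7.96 to 8.20. Surfactant protein B (Sftpb) ranged from 7.73 to 7.98, surfactant protein A (Sftpa1) from 7.02 to 7.40 and Hopx, of alveolar type 1 cells, from 5.66 to 5.92. The protease Napsa of alveolar type 2 cells ranged from 3.66 to 4.24 and Foxj1, the factor of ciliated cells, from 2.41 to 2.97. None of these 8 genes was called in any comparison by limma with Benjamini-Hochberg adjustment. The air and CS arrays shared 1 slide and the IQOS arrays lay on another, so the effect of the slide cannot be told apart from that of IQOS in either comparison that uses the IQOS arrays. Position on the slide also differed between CS and air. Every CS array lay in row 2, while air 1 and air 2 lay in row 1 and air 3 in row 2. With array row as a covariate fewer members and far fewer probes were called for CS against air, as given at the end.

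The promoters of 3 members, 250 bases up to the transcription start in RefSeq on GRCm38.p6, are printed because Acta2 is the defining actin of the cell type and Lmod1 and Des are the genes called lower in CS lungs below. Capitals mark 2 short elements found by search on both strands, CArG-like boxes (CC, 6 bases of which at least 5 are A or T, then GG) and the MCAT element of the TEAD factors (GGAATG or its reverse complement CATTCC), and the 2 elements did not overlap. The Acta2 promoter lies at chr19:34255374-34255623 on the minus strand, that of Lmod1 at chr1:135324563-135324812 on the plus strand and that of Des at chr1:75360042-75360291 on the plus strand.
Acta2: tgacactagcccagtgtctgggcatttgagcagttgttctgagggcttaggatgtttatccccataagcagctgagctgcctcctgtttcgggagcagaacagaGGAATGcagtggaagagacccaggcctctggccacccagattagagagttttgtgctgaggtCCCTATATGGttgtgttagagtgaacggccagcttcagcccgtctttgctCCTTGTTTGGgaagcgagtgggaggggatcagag
Lmod1: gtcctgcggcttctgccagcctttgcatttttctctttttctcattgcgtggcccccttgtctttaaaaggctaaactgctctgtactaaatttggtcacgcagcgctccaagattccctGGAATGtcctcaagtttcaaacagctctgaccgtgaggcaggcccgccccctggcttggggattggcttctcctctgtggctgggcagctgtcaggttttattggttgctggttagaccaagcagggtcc
Des: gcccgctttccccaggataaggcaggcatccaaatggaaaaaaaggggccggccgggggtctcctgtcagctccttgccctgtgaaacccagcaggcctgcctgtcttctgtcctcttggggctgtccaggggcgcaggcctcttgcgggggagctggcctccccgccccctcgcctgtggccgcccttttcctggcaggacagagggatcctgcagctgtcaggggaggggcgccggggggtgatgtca

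The Acta2 window held 2 CArG-like boxes, CCCTATATGG from 84 to 75 bases before the start and CCTTGTTTGG from 34 to 25 bases before it, and a GGAATG from 146 to 141 bases before it. The Lmod1 window held a GGAATG from 130 to 125 bases before the start, and the Des window held neither element. Windows for 6 of the 10 members were used, those of Acta2, Cnn1, Des, Lmod1, Mylk and Synpo2. A CArG-like box stood in 1 of these 6 against 8.6% of all 32817 promoters of the same length, and the MCAT element in 3 of 6 (Acta2, Lmod1 and Mylk) against 12.6%. A perfect CArG box, with A or T in all 6 middle places, stood in 0 of 6 and in 1.47% of all promoters. These matches describe letters in short windows only.

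CS lungs against air lungs gave lower levels for most of the contractile genes. All 10 genes had a negative difference, with a median of -0.44 on the log2 scale and a range of -0.73 to -0.11, against a median of -0.02 over all 16593 tested genes. Lmod1 fell by 39.6% and Des fell by 32.1%, and these 2 of 10 genes were called by limma at an adjusted p under 0.05, where 6.12% of all tested genes were called lower. At an unadjusted p under 0.05 there were 7 of 10 genes lower, against 17.3% of all genes. Counting any probe of a gene, 4 of 10 were called lower, with Myh11 and Mylk joining on probes that were not their brightest. By the same count 7.96% of all tested genes were called lower, and 15.1% of those with 3 tested probes, as Acta2, Myh11 and Mylk have. For 7 of the 10 genes the CS and air arrays did not overlap, where 21% of all genes had every CS array below every air array.

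IQOS lungs against air lungs gave smaller and mixed differences. Of the 10 genes 6 had a negative and 4 a positive difference, with a median of -0.13 against -0.01 over all genes. None of the 10 was called by limma, where 0.886% of all genes were called lower and 1.99% higher, and 3 were lower at an unadjusted p under 0.05 (Acta2, Cnn1 and Des), against 10.5% of all genes. That number was 0 without air 2, air 3 or IQOS 1 and 2 to 4 without any other array. The shares of all genes in those fits were not counted. Without air 1 there were 9 negative differences, and without IQOS 3 the median was -0.07. For 4 genes (Acta2, Tagln, Cnn1 and Des) every IQOS array was below every air array on the brightest probe, against 15.1% of all genes. On the other probes of Acta2 and Cnn1 the IQOS and air arrays overlapped. When IQOS lungs were set against CS lungs, 9 of 10 differences were positive, with a median of 0.20 against 0.02, and Lmod1 alone was called, where 4.94% of all genes were called higher. At an unadjusted p under 0.05 there were 3 genes higher in IQOS lungs (Lmod1, Synpo2 and Actg2), against 15.6% of all genes, and the same number had every IQOS array above every CS array, against 18.5%. Each pair of comparisons shares the 3 arrays of a group, so their values are set side by side and not tested for likeness.

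**Figure D1:**
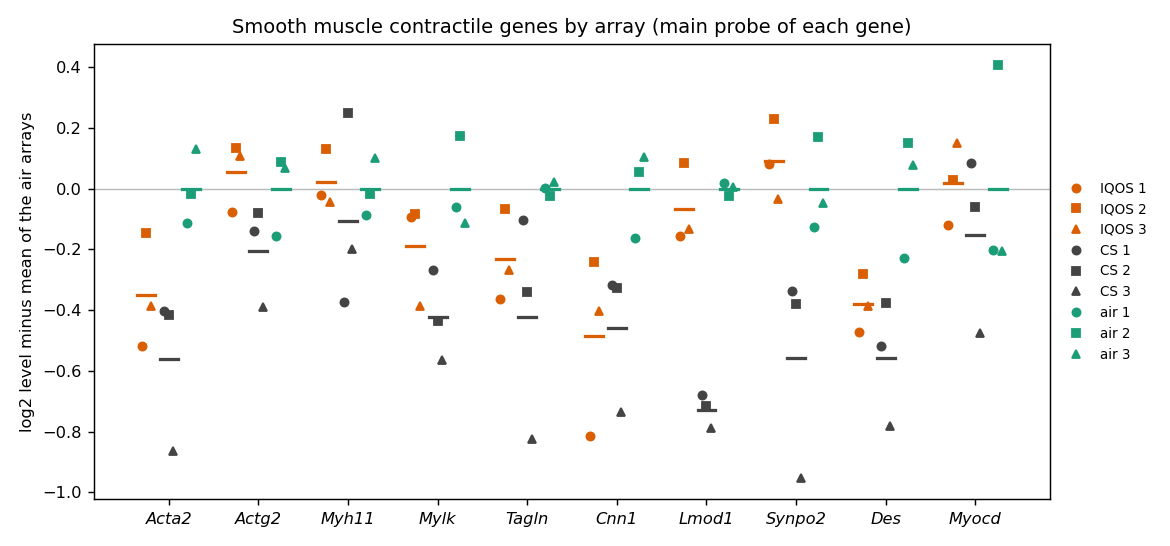
Log2 level of the brightest probe of each of the 10 genes on every array (vertical axis, minus the mean of the gene's air arrays), with IQOS, CS and air side by side; symbols are arrays 1 to 3 of a group and short lines are group means. The 3 CS arrays of Lmod1 lie below all IQOS and air arrays, and CS 3 is the lowest CS array in 9 of 10 genes.

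Among the actins, Acta2 encodes the actin that defines vascular and airway smooth muscle. Its brightest probe read 4.74, 5.12 and 4.88 in IQOS lungs, 4.86, 4.84 and 4.40 in CS lungs, and 5.15, 5.24 and 5.39 in air lungs. Every IQOS and every CS array was below every air array, while IQOS and CS arrays overlapped and CS 3 was the lowest of all. The CS minus air difference was -0.56 ± 0.15 (log2, SE; 95% interval -0.90 to -0.22), which missed the threshold with an adjusted p of 0.0517 in limma, and the IQOS minus air difference was -0.35 ± 0.15 (-0.69 to -0.01) with an adjusted p of 0.222. The CS against air difference passed the threshold under normexp background correction (adjusted p 0.0342), an intensity trend with robust eBayes (0.0359), quantile normalization (0.04), median centring (0.0432) and the filter on all 9 arrays (0.0462). It was not called in any of the 9 fits with 1 array left out (adjusted p 0.0543 to 0.129 in limma). Another Acta2 probe, described below, showed no such fall.

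Actg2 encodes the smooth muscle actin of visceral muscle, and its protein is nearly identical to that of Acta2. Cross-hybridisation between the probes of these genes was not tested. It read 2.74, 2.95 and 2.93 in IQOS lungs, 2.68, 2.74 and 2.43 in CS lungs, and 2.66, 2.91 and 2.88 in air lungs. CS and air arrays overlapped, and every IQOS array lay above every CS array, IQOS 1 only just. Its CS minus air difference was -0.20 ± 0.11 (-0.46 to 0.05) and its IQOS minus CS difference 0.26 ± 0.11, with adjusted p-values of 0.26 and 0.169 in limma.

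For the myosin motor, Myh11 had 3 probes, numbered here from the brightest. Probe 1, matched to another RefSeq transcript than the others, read 0.88, 1.03 and 0.85 in IQOS lungs, 0.52, 1.14 and 0.70 in CS lungs, and 0.81, 0.88 and 0.996 in air lungs. These overlapped fully, with CS 2 the highest and CS 1 the lowest of the 9 arrays, and the CS minus air difference was -0.11 ± 0.15 (-0.45 to 0.24). Probe 3 read -1.37, -1.33 and -1.52 in IQOS lungs, -1.80, -1.82 and -2.18 in CS lungs, and -1.30, -1.14 and -1.06 in air lungs. Here the CS arrays were below every other array and every IQOS array was below every air array.

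On probe 3 Myh11 fell by 41.4% in CS lungs against air lungs (-0.77 ± 0.12, adjusted p 0.0115 in limma) and was 43.8% higher in IQOS lungs than in CS lungs (0.52 ± 0.12, adjusted p 0.0335). Probe 2 read 0.07, 0.34 and 0.18 in IQOS lungs, -0.11, -0.12 and -0.52 in CS lungs, and 0.23, 0.36 and 0.52 in air lungs, and was called lower in CS lungs than in air lungs (-0.62 ± 0.13, adjusted p 0.0287). So probes 2 and 3 had CS arrays apart from air arrays, and probe 1 did not. Leaving out any 1 array kept the call of probe 3 for CS against air, with adjusted p-values between 0.0172 and 0.037, while probe 2 was called in 4 of the 9 such fits and the IQOS against CS call of probe 3 in 4 of 9. Averaged over its 3 probes, Myh11 was called lower in CS lungs (-0.50, adjusted p 0.0275).

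Mylk, the kinase that starts contraction, also had 3 probes. Its brightest read 3.41, 3.42 and 3.12 in IQOS lungs, 3.24, 3.07 and 2.94 in CS lungs, and 3.44, 3.68 and 3.39 in air lungs. Every CS array lay below every air array, and IQOS arrays overlapped both. The CS minus air difference was -0.42 ± 0.12 with an adjusted p of 0.0634 in limma, and the IQOS minus air difference -0.19 ± 0.12 with an adjusted p of 0.404. On probe 3, with 1.56, 1.67 and 1.30 in IQOS lungs, 1.36, 1.15 and 0.96 in CS lungs, and 1.61, 1.92 and 1.62 in air lungs, Mylk fell by 32.2% in CS lungs (-0.56 ± 0.14, adjusted p 0.0449), a call that remained in 2 of the 9 fits with 1 array left out.

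Of the actin-binding proteins, Lmod1 gave the clearest difference of the 10 genes. Leiomodin starts new actin filaments in smooth muscle. It read -3.90, -3.66 and -3.88 in IQOS lungs, -4.42, -4.46 and -4.53 in CS lungs, and -3.73, -3.77 and -3.74 in air lungs. The CS arrays stood apart from all 6 others, and IQOS and air arrays overlapped. Lmod1 was lower in CS lungs than in air lungs by 0.73 (-0.73 ± 0.08, 0.604-fold, adjusted p 0.00408 in limma) and higher in IQOS lungs than in CS lungs (0.66 ± 0.08, 1.58-fold, adjusted p 0.00387). The IQOS minus air difference was -0.07 ± 0.08 (-0.24 to 0.11).

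Both Lmod1 calls remained with any 1 array left out, with adjusted p-values of 0.00486 to 0.0249 for CS against air and 0.00883 to 0.0187 for IQOS against CS. The probe was dim, with 45.3 to 83.3 signal units before scaling, although well above background on all 9 arrays. With normexp background correction and an offset of 50 units the differences shrank to -0.31 for CS against air and 0.23 for IQOS against CS, still called (adjusted p 0.0144 and 0.0352). With array row on the slide as a covariate the CS against air call remained (adjusted p 0.0459) and the IQOS against CS call did not (adjusted p 0.168), where every CS array lay in row 2 and every IQOS array in row 1.

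Transgelin (Tagln), an actin cross-linker and early marker of smooth muscle, read 5.01, 5.31 and 5.11 in IQOS lungs, 5.27, 5.04 and 4.55 in CS lungs, and 5.38, 5.35 and 5.40 in air lungs. Both exposed groups lay below the air arrays on every array, and the SD was 0.37 among CS arrays and 0.02 among air arrays. The CS minus air difference of -0.42 ± 0.17 and the IQOS minus air difference of -0.23 ± 0.17 had adjusted p-values of 0.147 and 0.457 in limma.

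On the brightest probes Cnn1, which binds actin and slows its myosin, was the 1 gene whose IQOS mean was not above its CS mean. On Cnn1 probe 2 the IQOS minus CS difference was 0.13 ± 0.19, and IQOS arrays overlapped air arrays (IQOS 2 at -1.26, air 1 at -1.38). Its brightest probe read 3.61, 4.18 and 4.02 in IQOS lungs, 4.11, 4.10 and 3.69 in CS lungs, and 4.26, 4.48 and 4.53 in air lungs. On this probe both exposed groups again lay below every air array, and they overlapped each other, with IQOS 1 the lowest. The differences were -0.49 ± 0.17 for IQOS minus air, -0.46 ± 0.17 for CS minus air and -0.03 ± 0.17 for IQOS minus CS, and none was called (adjusted p 0.157, 0.127 and 0.939 in limma).

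Synpo2 encodes an actin-binding protein of the Z-disc and of smooth muscle dense bodies. It read 0.39, 0.53 and 0.27 in IQOS lungs, -0.03, -0.07 and -0.65 in CS lungs, and 0.18, 0.48 and 0.26 in air lungs. The CS arrays were below all others, and IQOS and air arrays overlapped. Its IQOS minus CS difference of 0.65 ± 0.17, or 56.8% higher, missed the threshold with an adjusted p of 0.0509 in limma, and passed it under normexp background correction (0.0194), an intensity trend with robust eBayes (0.0379), the filter on all 9 arrays (0.0456) and without CS 1 (0.0485). The CS minus air difference was -0.56 ± 0.17 (adjusted p 0.0736) and the IQOS minus air difference 0.09 ± 0.17 (-0.30 to 0.48).

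Desmin (Des), the intermediate filament protein of muscle, read 0.73, 0.92 and 0.81 in IQOS lungs, 0.68, 0.82 and 0.42 in CS lungs, and 0.97, 1.35 and 1.28 in air lungs. Every exposed array was below every air array, and IQOS and CS arrays overlapped. Des fell by 0.56 in CS lungs against air lungs (-0.56 ± 0.13, adjusted p 0.0386 in limma), and this call was lost without any 1 of the 9 arrays (adjusted p 0.051 to 0.0986, with differences of -0.67 to -0.45). The IQOS minus air difference was -0.38 ± 0.13 (-0.69 to -0.07, adjusted p 0.15).

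Myocd, the coactivator, read -2.39, -2.24 and -2.12 in IQOS lungs, -2.18, -2.33 and -2.74 in CS lungs, and -2.47, -1.86 and -2.47 in air lungs. All 3 groups overlapped, and air 2 was the highest array. Its differences were -0.15 ± 0.20 for CS minus air (-0.61 to 0.31), 0.02 ± 0.20 for IQOS minus air and 0.17 ± 0.20 for IQOS minus CS, with adjusted p-values of 0.661, 0.967 and 0.619 in limma. The CS minus air interval for Myocd also covers a difference of the size measured for Acta2.

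**Figure D2:**
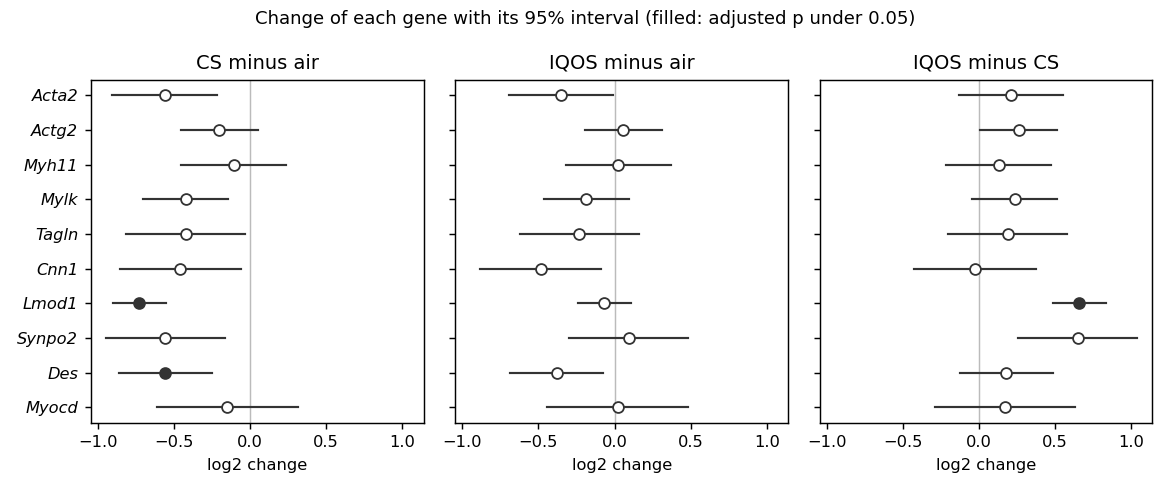
Log2 change of each gene's brightest probe with its 95% interval from limma (3 arrays a group), with a panel for each of the 3 comparisons; filled points had an adjusted p under 0.05. Lmod1 reads -0.73 for CS minus air and -0.07 for IQOS minus air.

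Probes of the same gene did not always move together. Of all 18 probes, 17 were lower in CS lungs than in air lungs and 5 were called lower (Lmod1, Des, Mylk probe 3 and Myh11 probes 2 and 3), against 5.68% of all tested probes. The exception was Acta2 probe 2, which read 3.92, 4.10 and 3.92 in IQOS lungs, 4.11, 4.16 and 4.01 in CS lungs, and 3.94, 4.16 and 4.07 in air lungs. Its arrays overlapped in every comparison, and its CS minus air difference was 0.04 ± 0.08 (-0.15 to 0.23), while Acta2 probe 3 gave -0.37 ± 0.15 with CS below air on every array. On Acta2 probe 3 the IQOS minus air difference was -0.14 ± 0.15, and IQOS and air arrays overlapped. The step from Acta2 probe 2 to probe 1 averaged 0.61 ± 0.19 in CS lungs and 1.21 ± 0.12 in air lungs, and that from Myh11 probe 3 to probe 1 averaged 2.72 ± 0.35 in CS lungs and 2.06 ± 0.05 in air lungs (SD, n = 3 each). These pairs were chosen after their values were seen, and their steps are a description with no test. For the Cnn1 probes the CS and air steps differed by 0.0059, at 5.611 and 5.605, while the IQOS step averaged 5.45. What these probes bind beyond their matched transcripts was not tested.

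The second probes of Mylk, Cnn1 and Synpo2 kept the direction of the first for CS against air. Mylk probe 2 differed by -0.35 ± 0.14 and Cnn1 probe 2 by -0.47 ± 0.19, with CS below air on every array and neither called (adjusted p 0.137 and 0.146 in limma). Synpo2 probe 2, not well above background on CS 1, differed by -0.42 ± 0.41, and its IQOS 1 value of -3.28 stood far from IQOS 2 and IQOS 3 at -4.92 and -4.97. For IQOS against CS, 2 of 18 probes were called higher (Lmod1 and Myh11 probe 3), against 5.71% of all probes. For IQOS against air 0 of 18 were called by limma, against 0.98% called lower. At an unadjusted p under 0.05 only the brightest probes of Acta2, Cnn1 and Des were lower. Of all genes 10.5% were lower at that threshold on their brightest probe.

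**Figure D3:**
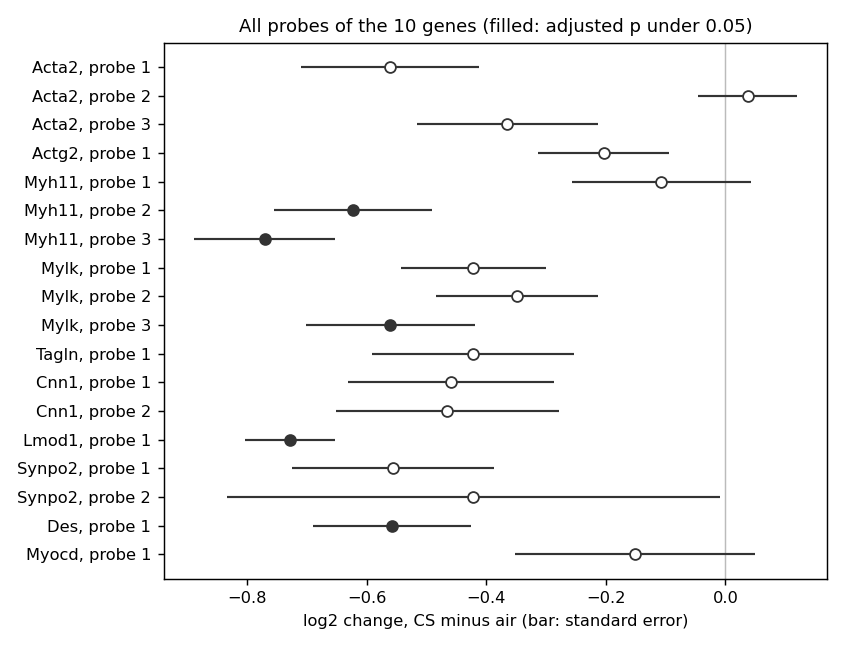
Log2 change, CS minus air, of all 18 probes (horizontal axis; bars are standard errors from limma, filled points had an adjusted p under 0.05), with probes of a gene numbered from the brightest. Acta2 probe 2 is the only one above 0, at 0.04.

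Across arrays the genes varied together, and single arrays stood out. The 45 pairs of members had a median Pearson r of 0.70 over the 9 arrays (0.07 to 0.94), highest for Acta2 with Des at 0.938 and lowest for Myh11 with Myocd at 0.072. These points share arrays and groups, and after group means were subtracted the median was 0.59. Pairs of other genes were not counted for comparison. CS 3 was the lowest CS array in 9 of 10 genes, against 39.2% of all genes, and CS 1 the highest in 7 of 10, against 37.4%. IQOS 2 was the highest IQOS array in 9 of 10 genes (39% of all genes) and IQOS 1 the lowest in 7 of 10 (38.9%). The members' median distance from the air mean was -0.14, -0.02 and -0.20 in IQOS 1, 2 and 3, -0.33, -0.36 and -0.76 in CS 1, 2 and 3, and -0.12, 0.07 and 0.05 in air 1, 2 and 3. CS 3 was thus farthest from air, and CS 1 and CS 2 were also below all IQOS and air arrays.

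Without CS 3 the members' median for CS against air was -0.34, with 5 genes lower at an unadjusted p under 0.05, and for IQOS against CS it was 0.08. Without CS 1 it was -0.55 for CS against air. Des lost its call in each fit with 1 array left out, so 1 of 10 genes, Lmod1, was called for CS against air in every such fit.

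**Figure D4:**
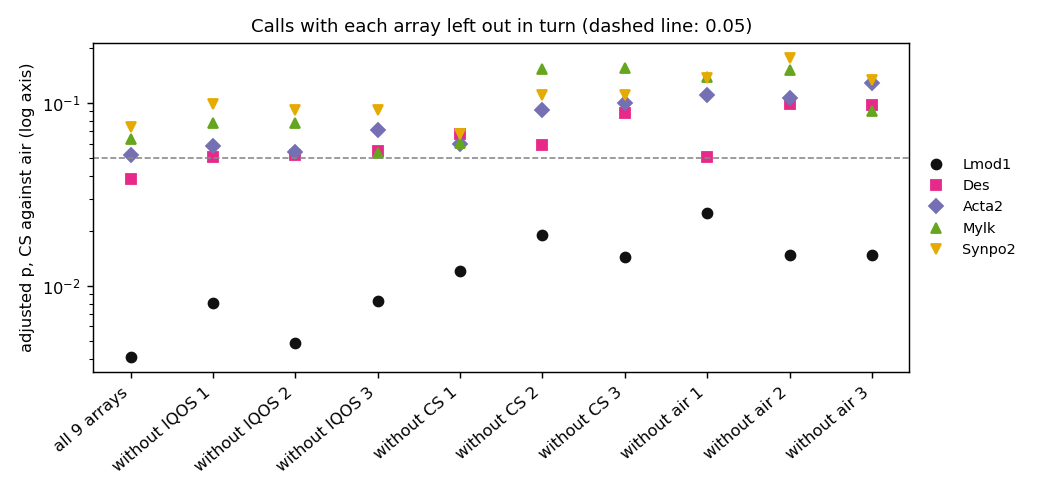
Adjusted p (limma, log axis) of the CS against air difference of Lmod1, Des, Acta2, Mylk and Synpo2 (brightest probes) with all 9 arrays and with each array left out in turn; the dashed line is 0.05. Lmod1 stays between 0.00486 and 0.0249, and Des lies between 0.051 and 0.0986 once an array is left out.

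The 5 other tested genes whose levels followed the members' mean standardised level most closely over the 9 arrays were Slc46a1 (r = 0.985), Abcb8 (0.9753), Igsf10 (0.9719), Tbc1d19 (0.9682) and Olfr1033 (0.9612), as a description. The array pattern was shared by several of the gene lists described below. Their mean standardised levels followed the members at r = 0.943 for fibroblast, 0.886 for pericyte, 0.799 for control of contraction and 0.767 for cardiac genes. The other lists lay between -0.205 (lung epithelial) and 0.688 (other contractile apparatus).

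Of 25 other genes of the contractile apparatus 3 were called lower and 1 higher in CS lungs against air lungs, with a median of -0.09 (6.12% of all genes lower and 5.6% higher). Synemin (Synm), an intermediate filament partner of desmin, averaged 2.37 in IQOS lungs, 2.27 in CS lungs and 2.83 in air lungs. It fell in CS lungs (-0.56 ± 0.08, adjusted p 0.00797 in limma, called with any 1 array left out) and in IQOS lungs (-0.45 ± 0.08, adjusted p 0.0234, called in 4 of 9 such fits), both against air. The tropomyosin Tpm2 (-0.53 ± 0.11, adjusted p 0.0268) and caldesmon Cald1 (-0.37 ± 0.08, adjusted p 0.0326), which both lie along the actin filament, fell in CS lungs, in 4 and 5 of the 9 fits. The other tested Tpm2 probe had the same direction and was not called. Alpha-actinin 1 (Actn1), an actin cross-linker of many cell types, averaged 4.12 in IQOS lungs and 4.53 in CS lungs, and was the 1 gene of this list called between these groups (-0.40 ± 0.06, adjusted p 0.00725).

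Of 22 tested genes that control contraction, 4 were called lower and 1 higher in CS lungs against air lungs (6.12% and 5.6% of all genes), with a median of -0.14, and 0 were called by limma in either comparison of IQOS lungs. Ppp1r12b, a myosin phosphatase subunit, averaged -0.20 in CS lungs and 0.20 in air lungs (-0.39 ± 0.06, adjusted p 0.0114 in limma). The other tested Ppp1r12b probe had the same direction and was not called. Gucy1a1, a subunit of the nitric oxide receptor that relaxes muscle, averaged 3.56 in CS lungs and 4.13 in air lungs (-0.58 ± 0.11, adjusted p 0.0224 in limma). Rgs2, which shortens signals of contractile receptors, averaged 4.67 in CS lungs and 4.12 in air lungs (0.55 ± 0.12, adjusted p 0.0352). The call of Ppp1r12b was lost without air 1, and those of Gucy1a1 and Rgs2 remained in 5 and 3 of the 9 fits. Of 10 transcription factors of smooth muscle, SRF among them, 0 were called by limma in any comparison. Their median was 0.04 for CS against air, and 2 of the 10 were lower at an unadjusted p under 0.05, against 17.3% of all genes.

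Receptors of airway and vascular muscle moved both ways. Of 14, 3 were called higher and 2 lower in CS lungs against air lungs (5.6% and 6.12% of all genes), and 3 lower in IQOS lungs than in CS lungs (5.18% of all genes lower in that comparison). The bradykinin receptor Bdkrb2 read -0.90, -0.52 and -1.33 in IQOS lungs, 0.87, 0.83 and 0.60 in CS lungs, and -1.14, -0.96 and -1.19 in air lungs. Its CS arrays stood above all others, with differences of 1.87 ± 0.19 for CS minus air (adjusted p 0.00394 in limma) and -1.69 ± 0.19 for IQOS minus CS (adjusted p 0.0037), both called with any 1 array left out. These are values of the brighter of 2 tested Bdkrb2 probes. The other had the same direction in both comparisons and was called in neither, and for IQOS minus air the signs of the 2 probes differed. The muscarinic receptor Chrm3, through which acetylcholine contracts airway muscle, averaged -2.85 in CS lungs and -4.11 in air lungs (1.26 ± 0.26, adjusted p 0.0272), a call lost without any 1 CS array.

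The thromboxane receptor Tbxa2r, a constrictor receptor, averaged -1.79 in CS lungs and -0.71 in air lungs (-1.08 ± 0.20, adjusted p 0.0186 in limma), a call lost without air 1, air 2 or CS 2. The prostacyclin receptor Ptgir, which relaxes vessels, averaged -1.32 in IQOS lungs and -0.07 in CS lungs (-1.25 ± 0.16, adjusted p 0.00583), called with any 1 array left out. These receptors are also made by other lung cells.

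Markers of other lung cell types were counted in the same way, against the 6.12% of all genes called lower and 5.6% called higher in CS lungs than in air lungs. Of 14 fibroblast markers 3 were called lower and 0 higher in CS lungs, and 13 had a negative difference, with a median of -0.36. The collagens Col1a1 (-0.93 ± 0.15, adjusted p 0.012 in limma), Col3a1 (-0.91 ± 0.16, adjusted p 0.017) and Col1a2 (-0.64 ± 0.14, adjusted p 0.0297) were the genes called. The call of Col1a1 remained with any 1 array left out, that of Col3a1 was lost without air 1, and that of Col1a2 was lost without any 1 air array. Col1a1 averaged 3.44 in IQOS lungs, 2.84 in CS lungs and 3.77 in air lungs, and was called higher in IQOS lungs than in CS lungs (0.61 ± 0.15, adjusted p 0.0399) in 2 of 9 fits with 1 array left out. A summed linear level follows a list's brightest probes most. That of the fibroblast list was 355.5 to 387.2 in IQOS lungs, 307.4 to 340.2 in CS lungs and 369.6 to 392.3 in air lungs. That of the contractile genes was 93.6 to 116.6 in IQOS lungs, 74.2 to 105.1 in CS lungs and 118.5 to 131 in air lungs. The part of fibroblasts in the contractile differences was not tested.

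Of 10 pericyte markers 3 were called lower and 0 higher in CS lungs than in air lungs, and 8 had a negative difference, with a median of -0.31. At an unadjusted p under 0.05 in limma 6 were lower and 1 was higher (17.3% and 13.9% of all genes). The genes called were the growth factor receptor Pdgfrb (-0.56 ± 0.09, adjusted p 0.0141 in limma, lost without air 1), the channel Trpc6 (-0.66 ± 0.14, adjusted p 0.0279, called in 4 of 9 fits with 1 array left out) and the proteoglycan Cspg4 (-0.44 ± 0.11, adjusted p 0.0434, called in 1 of 9). The summed pericyte level was 35 to 41.6 in IQOS lungs, 34.1 to 38.3 in CS lungs and 41.7 to 45.9 in air lungs; the highest IQOS array and the lowest air array were close. Its part in the contractile differences was not tested.

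Heart muscle, which sheathes pulmonary veins in mice and can be cut with the lung, also varied. Of 16 cardiac markers 15 had a negative CS minus air difference, with a median of -0.52, yet 0 were called by limma in any comparison, with 1 higher and 2 lower at an unadjusted p under 0.05 for CS against air (13.9% and 17.3% of all genes). Their summed level was 220.5 to 333.1 in IQOS lungs, 129.3 to 220.2 in CS lungs and 176.9 to 331.2 in air lungs. The median distance from the air mean was -1.06 in CS 3, the array lowest in the contractile genes, and -0.51 in air 1, where the contractile genes read -0.12. Des is made by heart muscle too, and the part of heart muscle in its difference was not tested.

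Of 12 skeletal muscle markers 9 were tested, and Acta1, the actin of skeletal muscle and heart, was lower in CS lungs than in air lungs (-0.83 ± 0.18, adjusted p 0.0336 in limma) and higher in IQOS lungs than in CS lungs (0.73 ± 0.18, adjusted p 0.0479). The CS against air call remained in 5 of the 9 fits with 1 array left out and the IQOS against CS call in 0 of 9. Its CS mean rests on 2 arrays, because the spot was marked as an outlier on CS 1. The skeletal list summed to 2.42 to 2.86 in IQOS lungs, 2.06 to 2.66 in CS lungs and 2.63 to 5.29 in air lungs. Only air 1 was that high, at 5.29, while air 2 and air 3 read 2.63 and 2.78. Myh1, Myh2 and Myh4, the fast myosins that define skeletal muscle, were too dim to be tested. Of 6 mesothelial markers Rspo1 was called lower in CS lungs (-0.46 ± 0.11, adjusted p 0.0345 in limma), in 3 of 9 fits with 1 array left out, and the list's median was -0.16. Of 8 endothelial markers the angiopoietin receptor Tek was called lower (-0.43 ± 0.08, adjusted p 0.0204), a call lost without air 1 or CS 2, and the list's median was -0.17. The 8 lung epithelial markers had a median of 0.09 for CS against air, the receptors 0.02 and the skeletal list -0.27. In IQOS lungs against air lungs the medians of the 11 lists lay between -0.17 and 0.10, with Synm the 1 gene called on its brightest probe. Of the 3 probes of Trpc6, 1 that was not its brightest was called lower in that comparison. In IQOS lungs against CS lungs the medians lay between -0.16 (receptors) and 0.53 (cardiac).

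**Figure D5:**
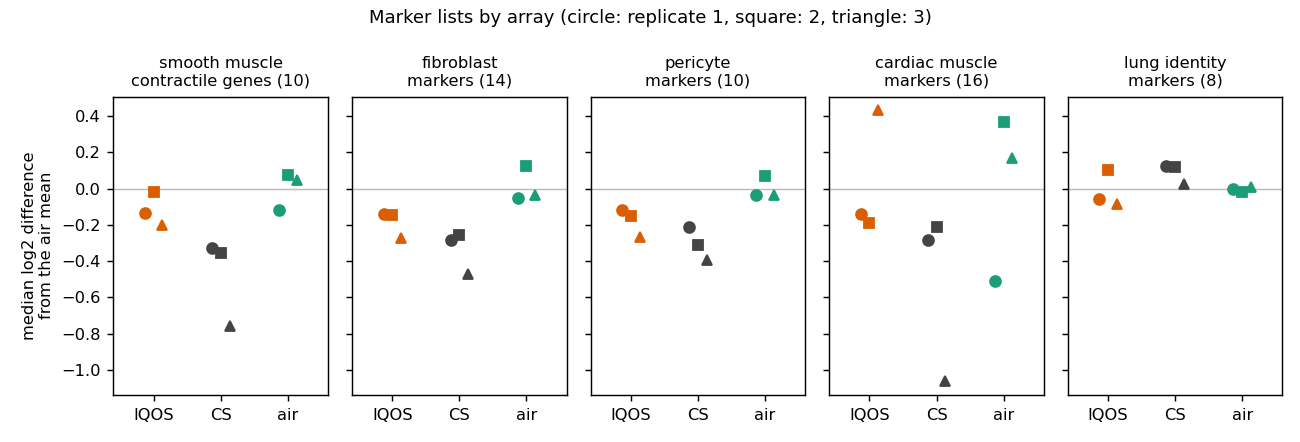
Median log2 difference from the air mean on every array for the contractile genes and 4 of the marker lists (fibroblast, pericyte, cardiac and lung epithelial), with groups ordered IQOS, CS and air and a symbol for each array. The contractile genes read -0.33, -0.36 and -0.76 on the CS arrays, and the cardiac list reads -1.06 on CS 3 and -0.51 on air 1.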

How the data were processed

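Whole-lung RNA of 9 samples was measured on one-colour arrays. The authors extracted the spot intensities as background-subtracted signals, not normalized between arrays, per the file headers. The submitters' processing notes name Agilent Feature Extraction 10.7.1.1. The deposited matrix of the series gives each value as a linear ratio to each array's 75th percentile, found from its values, with no log and no centring (column medians 0.12 for each IQOS array, 0.12, 0.118 and 0.117 for CS, and 0.114, 0.116 and 0.121 for air), and it served as an alternative.

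Of 62976 spots an array, outlier and control spots were left out, spots of a probe were averaged, and the log2 of the deposited intensities was scaled by each array's 75th percentile. Testing required values on 2 or more arrays of every group, and at least 1 group whose measured spots were all well above background, leaving 37258 of 56605 probes. Probes were named by matching accessions to the RefSeq gene list (GRCm38.p6), and 32994 probes received a symbol, since a gene name column is absent from the files used here. Differences were fitted across all 9 arrays with lmFit and eBayes of limma 3.58.1 in R 4.3.3 (package data.table, version 1.17.8), and the calling threshold was 0.05 after Benjamini-Hochberg adjustment over the tested probes. The number of arrays limits the precision.

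A gene's value is that of its brightest probe. All members and all their probes are named, with up to 3 called genes of smallest p from each of 11 other lists in each comparison, and 5 genes by correlation. A gene that this rule named is not reported here. The 11 lists hold the other contractile apparatus, control of contraction, transcription factors, receptors, and pericyte, fibroblast, cardiac, skeletal, mesothelial, endothelial and lung epithelial markers, and Irag1 matched no probe. The members and lists were chosen with earlier results of these data known. The fit was tested on simulated data. Of planted 1.5-fold changes it recovered 38.8% for CS minus air, 53.7% for IQOS minus air and 47.8% for IQOS minus CS. Of planted 2-fold changes it recovered 79.1%, 67.2% and 70.1% in the same order. False calls numbered 12, 8 and 12 among 36982 probes. A gene that was not called may therefore still differ. Alternatives were normexp on the median signals (offset 50; the mean signal column is absent from the files used here), quantile normalization, median centring, other filters on dim probes, the matrix values, robust eBayes with an intensity trend, replicate number as a block, array row, the mean of a gene's probes, only the arrays compared, an adjusted p under 0.1, any probe of a member (added after seeing the data), and each array left out.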

Additional observations from a re-analysis of the deposited data

How the results depend on the processing

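None of the alternatives moved the median of all probes by over 0.1 on the log2 scale. For CS against air 2 members were called, and 3 under quantile normalization, median centring, the filter on all 9 arrays or the mean of a gene's probes, 4 under normexp, 4 with an intensity trend and robust eBayes, 4 counting any probe, 5 at an adjusted p under 0.1, and 1 with no filter on dim probes, with array row or with only the arrays compared (1 with any array left out). For IQOS against CS 1 was called, and 2 under normexp, the filter on all 9 arrays, the trend, the replicate block, an adjusted p under 0.1 or any probe, and 0 with array row (1 to 2 with an array left out). For IQOS against air 0 were called under each of these (0 to 0 with an array left out). Over all probes, 3840 were called for CS against air, and 1541 with no filter, 310 with array row and 7098 at an adjusted p under 0.1 (731 to 3372 with an array left out). For IQOS against CS 3590 were called, and 1658 with no filter, 83 with array row, 1710 with only the arrays compared and 6523 at an adjusted p under 0.1 (1247 to 3201). For IQOS against air 1387 were called, and 2621 under normexp, 780 with median centring, 356 with no filter, 540 with the replicate block, 287 with array row, 408 with only the arrays compared and 3281 at an adjusted p under 0.1 (125 to 1115). The cause of these shifts was not tested, apart from fewer arrays or fewer residual degrees of freedom by construction. After group means were subtracted, same-numbered arrays correlated at -0.0789 to -0.0408 for CS with air and arrays of different number at -0.0313 to 0.105. For IQOS with air these ranges were 0.0793 to 0.201 and -0.165 to -0.002, and for IQOS with CS 0.00938 to 0.161 and -0.251 to 0.12. Same-numbered arrays were thus more alike for IQOS with air, less alike for CS with air, and overlapped the others for IQOS with CS. The labels do not say whether the replicate numbers pair the arrays, and the main fit treats them as unpaired. With the replicate block 3 members were called for CS against air, with Mylk joining (adjusted p 0.0436). Slide could not be a covariate, since it separates IQOS from the other groups, and array row is set by 2 air arrays against 1.

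Of 210 member values under alternatives in each comparison, 182 kept direction and side of the threshold for CS against air, 194 for IQOS against CS and 198 for IQOS against air. The signs that turned belong to small, uncalled differences, given with their range over the fits with 1 array left out. For IQOS minus air, Myocd gave -0.0736 under normexp, -0.00086 under quantile normalization, -0.0135 with median centring and -0.0832 with array row (-0.0832 to 0.224), Myh11 gave -0.0097 with median centring and -0.13 as a mean of probes (-0.031 to 0.074), and Actg2 ranged from -0.0223 to 0.122. For IQOS minus CS, Cnn1 gave 0.0286 under quantile normalization, 0.13 with array row and 0.0534 as a mean of probes (-0.165 to 0.138), Myocd gave -0.14 with array row, Myh11 ranged from -0.0023 to 0.309 and Tagln from -0.012 to 0.349. For CS minus air, Myocd gave 0.0539 with array row (-0.269 to 0.053) and Myh11 ranged from -0.286 to 0.0255.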
